A study of Rattus rattus with 8 samples.

Results

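Immediate early response genes are transcribed within minutes of a stimulus from factors that the cell already holds, so that their mRNA appears without new protein synthesis and usually fades again within hours. Many of them encode transcription factors, among them the Fos and Jun proteins, which pair to form activator protein 1 (AP-1), and others encode feedback inhibitors of the kinases that switch them on. In skin and hair follicles they respond to wounding and inflammation. The genes examined here were Fos (NM_022197), Jun (NM_021835), Junb (NM_021836), Fosl1 (NM_012953), Egr1 (NM_012551), Atf3 (NM_012912), Nr4a1 (NM_024388), Dusp1 (NM_053769), Ier3 (NM_212505) and Myc (NM_012603). They were found as the array probes that carry the listed RefSeq accessions. Each of the 10 accessions named 1 probe, so that 10 of the 30367 different probes of the array were followed.

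Whisker follicles were collected from male adult Sprague-Dawley rats after exposure of the head to a simulated blast in a shock tube under isoflurane. The 3 sham control rats (C1, C2 and C3) were labelled with a pressure of 0 kPa. The 5 blast rats were exposed at 145 kPa (M2 and M3), 175 kPa (H1) or 200 kPa (XH1 and XH3). Several follicles of a rat made up 1 sample and each rat had 1 array, so that p-values measure the spread between these rats. According to the methods, rats were kept for a day or a week after exposure, and the period of each rat is not given in the labels, so it did not enter any comparison. The labels give the species as Rattus rattus, whereas Sprague-Dawley is a strain of Rattus norvegicus. Markers of follicle keratinocytes were not analysed here. All levels below are normalized intensities on the log2 scale, and a log2 fold change is the mean of the blast rats minus the mean of the sham control rats.

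The 10 genes were measured with different reliability. On all 8 arrays, 9 of the probes were well above background, the software's call that a spot is brighter than its surroundings. Dusp1 was the exception, with this call on the arrays of C1 and C2 (2 of 3 in the sham group) and of M2 and H1 (2 of 5 after blast). Of the 30217 probes that had values for all rats, 17472 were well above background on all 8 arrays. For Fos, 1 of 2 spots had the call on the array of M3 and both spots had it on the other arrays. No spot of these genes was saturated on any array. Nr4a1, Ier3 and Myc were read from 10 spots per array and Junb from 1 spot, and the others from 2 spots. Within an array, the spots of a probe had a median SD between 0.01 (Jun) and 0.17 (Dusp1), against an SD between rats of one group of 0.42 for Jun and 0.90 for Dusp1. For 6 of the 9 genes with more than 1 spot, the array of M3 gave the widest spread between spots, with an SD of 0.68 for Dusp1, 0.60 for Fos and 0.39 for Atf3, and of 0.11, 0.06 and 0.05 for Myc, Jun and Ier3.

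No immediate early response gene was shown to differ between blast and sham control rats. In limma, 0 of the 10 genes had an adjusted p under 0.05 and 0 had an unadjusted p under 0.05. Over all 30366 probes tested in limma, the shares were 0% at an adjusted p and 2.8% (850 probes) at an unadjusted p under 0.05. In 0 of the 10 genes were the blast and sham ranges fully separate, against 2% (605) of 30217 probes that had values for all rats. The mean was lower in blast rats for 9 genes and higher for Fosl1, and over all probes it was lower for 49%. The median log2 fold change was -0.24 over the 10 genes and 0.00 over all probes. For each of the 10 genes the 95% confidence interval of the log2 fold change spanned 0, and the limma-adjusted p was 0.9999. The intervals were wide, and that of Fos still held a 3.94-fold lower level after blast. Array quality weights and single rats moved the size of many of these differences by over 1.5 times, as given for each gene.

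**Figure D1:**
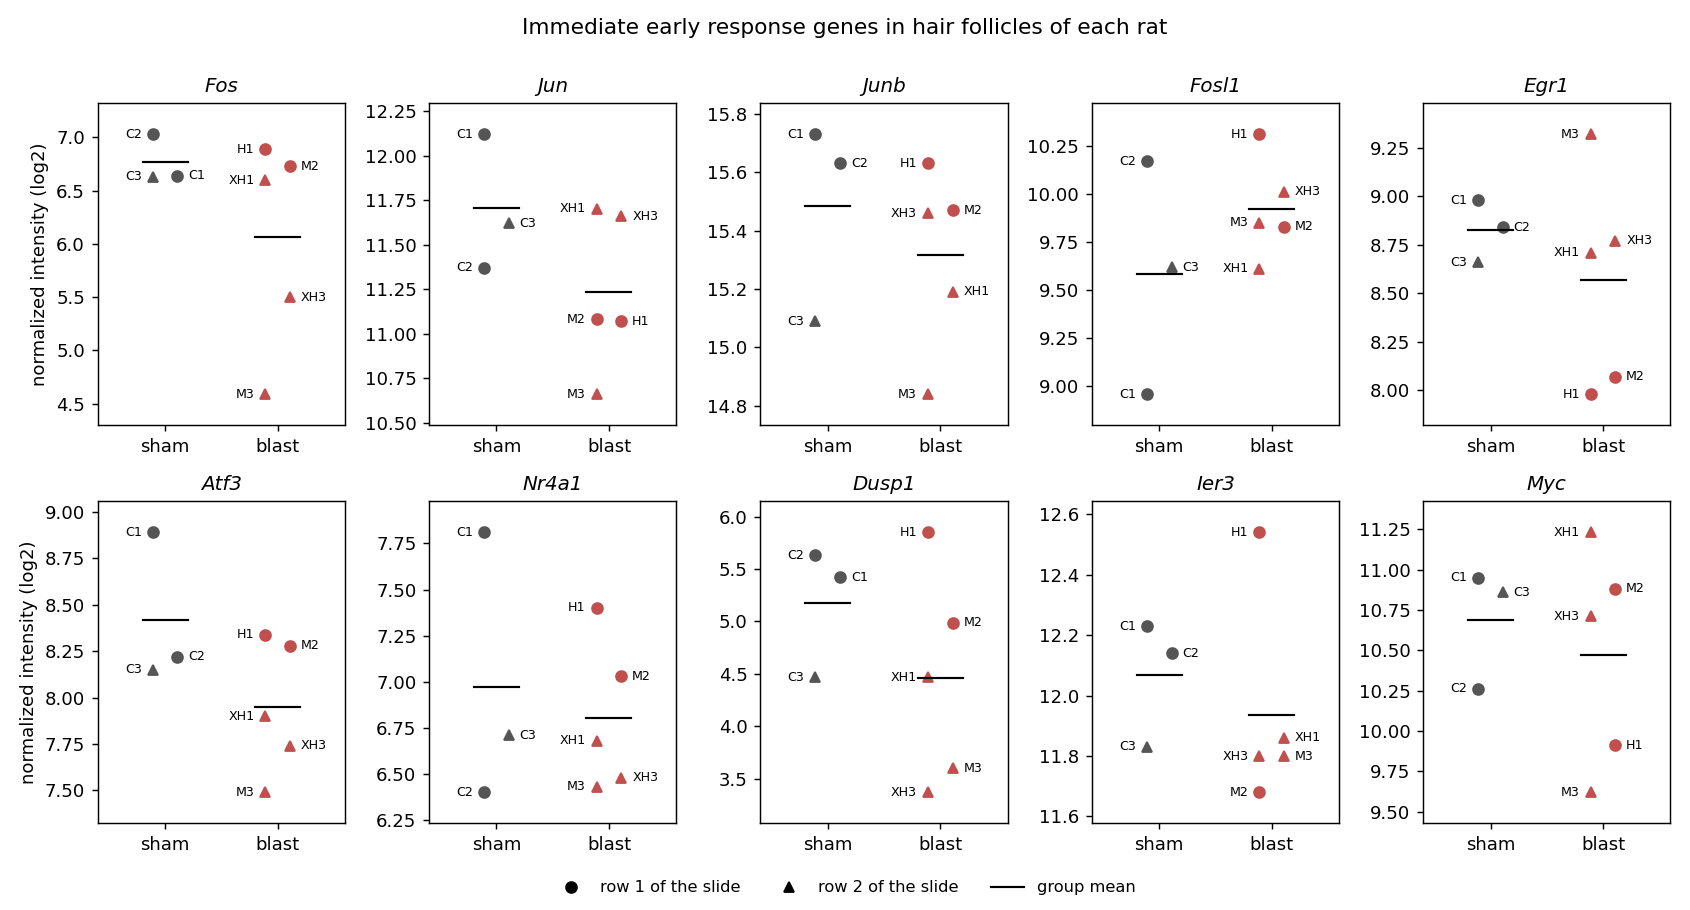
Normalized intensity (log2) of the 10 immediate early response genes in each of 3 sham control rats and 5 blast rats, with group means as lines and the row of the slide as the symbol. Sham control and blast rats overlapped for every gene, and M3 was the lowest rat for 5 of the 10 genes.

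Among the AP-1 genes, Fos encodes the partner that AP-1 takes up soon after a stimulus. Its level was 6.64, 7.03 and 6.63 in C1, C2 and C3, and 6.73, 4.59, 6.89, 6.60 and 5.50 in M2, M3, H1, XH1 and XH3. The sham control rats lay close together, whereas M3 and XH3 lay far below all other rats, and the remaining 3 blast rats were level with the sham control rats. The means were 6.77 ± 0.23 (SD, n = 3) and 6.06 ± 0.99 (SD, n = 5), a log2 fold change of -0.71 (standard error 0.54, two-sided exact permutation p = 0.25). Without M3 the log2 fold change was -0.34, and with normexp background correction and an offset of 50 it was -0.31. Follicles were measured as a whole, so that fewer cells of a type and less RNA per cell cannot be told apart. The smallest p that the 56 ways to part 8 rats into 3 and 5 allow in the exact permutation test is 0.0179.

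Jun encodes the main partner of Fos in AP-1. Its level was 12.12, 11.37 and 11.62 in C1, C2 and C3, and 11.08, 10.66, 11.07, 11.70 and 11.66 in M2, M3, H1, XH1 and XH3. M2, M3 and H1 lay below all sham control rats, and both rats at 200 kPa lay within their range. Blast against sham control gave a log2 fold change of -0.47 (standard error 0.29, 95% confidence interval -1.15 to 0.21, two-sided exact permutation p = 0.161). It was -0.26 without C1 and -0.21 with array quality weights.

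Junb encodes a Jun protein that often opposes Jun in growth control. Its level was 15.73, 15.63 and 15.09 in C1, C2 and C3, and 15.47, 14.84, 15.63, 15.19 and 15.46 in M2, M3, H1, XH1 and XH3. M3 alone was below the sham control rats, and the other blast rats were spread through the sham range. This amounted to a log2 fold change of -0.16 (standard error 0.23, two-sided exact permutation p = 0.518). It was 0.14 with array quality weights, -0.05 with 75th percentile scaling and -0.11 with normexp, and without single rats it lay between -0.36 (without C3) and -0.04 (without C1 or without M3), with -0.09 without C2.

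Fosl1 encodes Fra-1, a Fos protein that follows later in an AP-1 response. Its level was 8.96, 10.17 and 9.62 in C1, C2 and C3, and 9.83, 9.85, 10.31, 9.61 and 10.01 in M2, M3, H1, XH1 and XH3. The sham control rats were more dispersed than the blast rats (SD 0.60 against 0.26, a difference that was not tested), and H1 alone was above all of them. The log2 fold change of 0.34 (standard error 0.28, two-sided exact permutation p = 0.321) depended on which sham control rats were used. It was 0.03 without C1 and 0.63 without C2, and in the latter case Fosl1 had an unadjusted p under 0.05 and an adjusted p of 0.951 in limma, where 2.9% of all probes had an unadjusted p under 0.05.

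Egr1 encodes a zinc finger factor induced through serum response factor. Its level was 8.98, 8.84 and 8.66 in C1, C2 and C3, and 8.07, 9.32, 7.98, 8.71 and 8.77 in M2, M3, H1, XH1 and XH3. The blast rats lay on both sides of the sham control rats, with M2 and H1 below all of them, M3 above all of them and both rats at 200 kPa between them. Between the group means there was a log2 fold change of -0.25 (standard error 0.32, two-sided exact permutation p = 0.446). It was -0.44 without M3, -0.11 without H1 and -0.13 without M2, and -0.15 with array quality weights. M3, which had the lowest Fos level, thus had the highest Egr1 level.

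Atf3 encodes a stress-induced factor that can pair with Jun. Its level was 8.89, 8.22 and 8.15 in C1, C2 and C3, and 8.28, 7.49, 8.34, 7.90 and 7.74 in M2, M3, H1, XH1 and XH3. M3, XH1 and XH3 were below all sham control rats, and M2 and H1 were between C1 and C2. Its log2 fold change was -0.47 (standard error 0.26, 95% confidence interval -1.08 to 0.14, two-sided exact permutation p = 0.161), and without C1 it was -0.24.

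Nr4a1 encodes an orphan nuclear receptor whose activity is set largely by its amount. Its level was 7.81, 6.40 and 6.71 in C1, C2 and C3, and 7.03, 6.43, 7.40, 6.68 and 6.48 in M2, M3, H1, XH1 and XH3. All 5 blast rats lay between C2 and C1. The log2 fold change of -0.17 (standard error 0.37, two-sided exact permutation p = 0.714) was 0.25 without C1 and -0.46 without C2. Without any 1 of the other rats it lay between -0.32 (without H1) and -0.08 (without M3), and with array quality weights it was -0.09.

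Of the feedback and survival genes, Dusp1 encodes a phosphatase that switches off mitogen-activated protein kinases, and Ier3 encodes a regulator of stress-induced cell death. Dusp1 was at 5.42, 5.63 and 4.47 in C1, C2 and C3, and at 4.99, 3.60, 5.85, 4.47 and 3.37 in M2, M3, H1, XH1 and XH3. The readings of C3, M3, XH1 and XH3 were those not well above background, and they were the lowest ones. The log2 fold change of -0.72 (standard error 0.60, two-sided exact permutation p = 0.304) therefore rests in part on readings near background, and it was -0.11 with normexp and -0.45 without XH3. Ier3 was at 12.23, 12.14 and 11.83 in C1, C2 and C3, and at 11.68, 11.80, 12.54, 11.86 and 11.80 in M2, M3, H1, XH1 and XH3. H1 was above all other rats, and the other 4 blast rats lay near the lowest sham control rat. The log2 fold change was -0.13 (standard error 0.22, two-sided exact permutation p = 0.50), with -0.28 without H1, -0.25 without C3, -0.07 without M2, -0.05 without C1 and -0.08 with array quality weights.

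Myc encodes a growth-promoting factor that is active in the dividing cells of the hair bulb. Its level was 10.95, 10.26 and 10.86 in C1, C2 and C3, and 10.88, 9.62, 9.91, 11.23 and 10.71 in M2, M3, H1, XH1 and XH3. M3 and H1 were below all sham control rats and XH1 was above all of them. For Myc the log2 fold change was -0.22 (standard error 0.40, two-sided exact permutation p = 0.607), with -0.01 without M3, -0.08 without H1, -0.09 without C1, -0.14 without C3, -0.44 without C2, -0.41 without XH1 and -0.06 with array quality weights.

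The question whether the level of these genes followed the strength of the shock wave was addressed among the 5 blast rats, as a slope per 10 kPa. In limma, 1 of the 10 genes, Jun, had an unadjusted p under 0.05 and 0 had an adjusted p under 0.05, against 2.84% (860) and 0% of 30236 probes. Jun was at 11.08 and 10.66 in the rats at 145 kPa, 11.07 in the rat at 175 kPa, and 11.70 and 11.66 in the rats at 200 kPa. The slope was 0.15 on the log2 scale per 10 kPa (standard error 0.04, 95% confidence interval 0.04 to 0.26, limma-adjusted p = 0.9999). Both rats at 200 kPa were thus above the other blast rats, but at the level of the sham control rats, and over all 8 rats with sham at 0 kPa the slope was -0.02. With 75th percentile scaling, the filter on dim probes or slide row as a blocking term, 0 genes had an unadjusted p under 0.05 in the trend. The shares of all probes were 2.24%, 1.65% and 5.83%. There were also 0 without M3, XH1 or XH3, against 4.29%, 1.35% and 1.68% of all probes. Without M2 there were 2, Jun and Myc, in a fit where 15.7% of all probes passed the same threshold. With normexp (1.6% of all probes) and with the deposited log2 values (2.78%), Jun again had an unadjusted p under 0.05 and the other 9 genes did not. This also held without H1 (4.22%), which is the same fit as 200 kPa against 145 kPa. Having no lower limit gave the same fit as the main one. The slope of Jun itself was 0.14, 0.15 and 0.15 with the scaling, the filter and the row term, 0.12, 0.14 and 0.14 without M3, XH1 and XH3, and 0.19 without M2. Myc had the next largest slope, 0.12 (standard error 0.11), with 9.62 at 145 kPa and 9.91 at 175 kPa as its lowest values and 10.88 in M2. The slopes of the other 8 genes lay between -0.06 (Dusp1) and 0.08 (Fos).

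All 8 arrays lay on 1 slide, with C1, C2, M2 and H1 in row 1 and C3, M3, XH1 and XH3 in row 2. After the levels were seen, it was found that several of these genes were ordered by row. The 4 arrays of row 2 lay below the 4 arrays of row 1 for Fos, Junb, Atf3 and Dusp1, that is for 4 of the 10 genes, against 3.79% of 30217 probes. For Fos and Junb the rows were separated by only 0.01 on the log2 scale, and for Atf3 by 0.08. With 75th percentile scaling or with normexp there were 2 such genes, Atf3 and Dusp1, and with the deposited log2 values there were 3, with Fos no longer among them. The share of all probes was not counted for these settings, so these numbers cannot be set against 3.79%. Dusp1 was well above background on every array of row 1 and on 0 arrays of row 2, so that no fold between the rows is given for it.

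In a limma fit with row and group together, the row 2 arrays had a log2 difference from those of row 1 of -0.53 for Atf3 (standard error 0.19) and of -0.46 for Junb (standard error 0.16). With Dusp1, 3 of the 10 genes had an unadjusted p under 0.05 for the row, against 7.42% of all probes, and 0 had an adjusted p under 0.05, as did 0% of all probes in limma. The adjusted p was 0.638 for Atf3 and Junb and 0.635 for Dusp1. The median difference of row 2 from row 1 was -0.39 over the 10 genes and 0.02 over all probes. Since each rat had 1 array, the position on the slide and a difference between these rats cannot be told apart. This includes the period for which a rat was kept, which may differ between the rows and is not known here. The number in a rat's title also nearly followed the row. Number 3 (C3, M3 and XH3) lay in row 2 and number 2 (C2 and M2) in row 1. Of number 1, C1 and H1 lay in row 1 and XH1 in row 2. An order by row and an order by title number can thus hardly be told apart, and blocks by either are not independent checks.

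With the row as a block, the log2 fold change of blast against sham control was -0.47 for Fos, -0.50 for Jun and -0.33 for Atf3. Again 0 of the 10 genes had an unadjusted or an adjusted p under 0.05 in limma. Of all probes, 2.46% had an unadjusted p and 0 an adjusted p under 0.05 in this fit. Within row 1 (2 sham control and 2 blast rats) the log2 fold change of Fos was -0.03, and within row 2 (1 sham control and 3 blast rats) it was -1.07. M3 and XH3, the rats with low Fos, were both in row 2. Jun had log2 fold changes of -0.67 and -0.28 within rows 1 and 2, and Atf3 of -0.25 and -0.44. Egr1, Junb and Nr4a1 had log2 fold changes of opposite sign in the rows. For Egr1 the log2 fold change was -0.89 within row 1, with both blast rats below both sham control rats, and 0.28 within row 2, with all 3 blast rats above the sham control rat. Egr1 was singled out after its values were seen, row 2 has 1 sham control rat, and the difference between the rows was not tested. In row 2 the nearest blast rat, XH1, was at 8.71 against 8.66 in C3. Of the 10 genes, 1 had this opposite order in the rows. The share of all probes with such an order was not counted, and with so few rats per row it is easily met by chance. As a block, the row also moved the log2 fold change of Egr1 to -0.39, of Junb to -0.04, of Nr4a1 to -0.01 and of Ier3 to -0.05. For Dusp1 the value with the row as a block was -0.34, which rests in part on row 2, where no reading was well above background, and within row 1, where each reading was, it was -0.10.

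**Figure D2:**
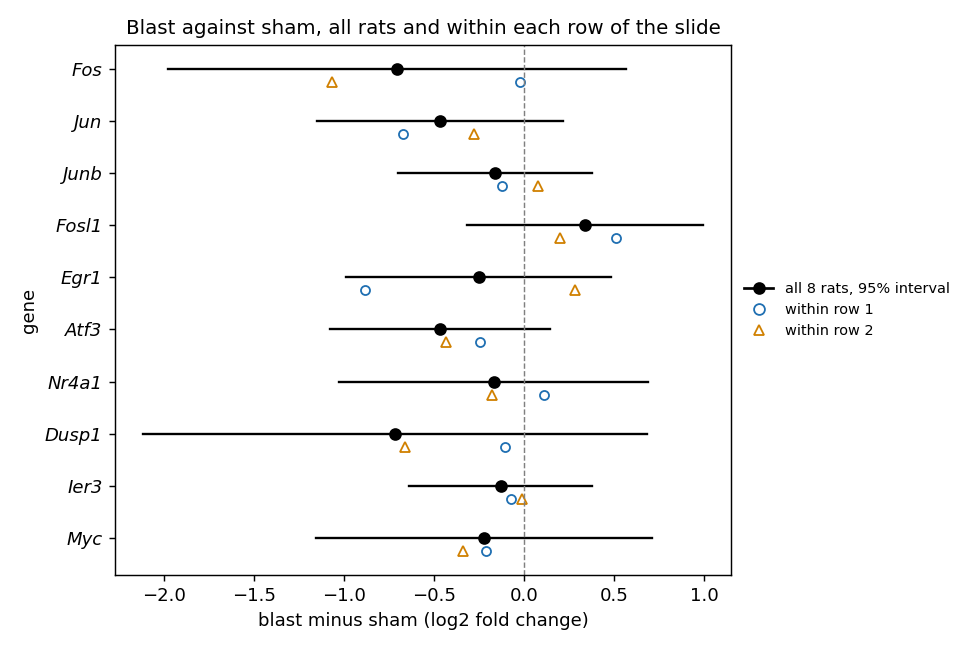
Log2 fold change of blast against sham control for the 10 genes over all 8 rats (filled circles, with the 95% confidence interval as a line) and within row 1 (open circles) and row 2 (triangles) of the slide. Each interval spans 0, and the values within the rows lie on opposite sides of 0 for Junb, Egr1 and Nr4a1.

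The genes did not vary as 1 block across the 8 rats, and single rats moved several of the relations between them. Pearson's r between Atf3 and Nr4a1 was 0.84 over all rats (n = 8), 0.65 without C1 and 0.85 without M3 (n = 7 each). Between Junb and Atf3 it was 0.77, and 0.71 and 0.60 without C1 and without M3. Jun and Myc had r of 0.77, with 0.79 and 0.60 in the same order. All of these kept their sign without either rat. Between Fos and Atf3, r was 0.74, with 0.93 without C1 and 0.55 without M3. Dusp1 had r of 0.84 with Fos and 0.80 with Atf3, but 4 of its 8 readings were not well above background, so that these values rest in part on background. Fosl1 and Jun had r of -0.65, with -0.31 without C1 and -0.82 without M3. Egr1 and Fos had r of -0.62, with -0.70 without C1 and -0.28 without M3. The relation of Fos to Jun, its partner, was weak and changed sign with 1 rat, with r of 0.41 over all rats and without C1, and -0.34 without M3. Other relations also moved far with 1 rat. For Jun and Egr1, r went from 0.13 to 0.86 without M3. Without C1, r went from 0.01 to 0.73 for Junb and Fosl1, and from -0.36 to -0.9 for Egr1 and Nr4a1. For Fosl1 and Nr4a1 it turned from -0.48 to 0.31 without C1. These values describe 8 arrays that also share a slide and differ in signal.

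Of 14788 other probes that carried an accession and were well above background on every array, those of NM_012796 and NM_001106842 followed Fos most closely, with r of 0.99 and 0.98 (n = 8), and 0.96 and 0.95 without M3 (n = 7). NM_012796 was at 8.03, 8.25 and 8.05 in C1, C2 and C3, and at 8.29, 6.66, 8.16, 8.14 and 7.43 in M2, M3, H1, XH1 and XH3. Both probes were chosen for their correlation with Fos over these rats, so that the pattern they share with it, with M3 and XH3 lowest, follows from the choice. Placed among these 14788 probes by r with Fos, the nearest of the other listed genes, Dusp1, would rank 416. Atf3 would rank 1156 and Jun 4271, so many probes outside the list followed Fos more closely than these genes did.

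Signal differed between the arrays before normalization. The median processed signal was 280.5 for C1, the highest, and between 90.9 (C2) and 179.9 (M2) for the others. C1 was also the highest rat for Jun, Junb, Atf3 and Nr4a1 and the lowest for Fosl1. Over the 8 rats, r with the log2 median signal of the array was 0.91 for Nr4a1 and 0.79 for Atf3, and without C1 (n = 7) it was 0.78 and 0.51. For Egr1 r was -0.26 over all rats and -0.87 without C1. Without C1, 8 of the 10 genes were lower in blast rats and the median log2 fold change was -0.13. M3, the lowest rat for Fos, Jun, Junb, Atf3 and Myc, had the smallest share of spots well above background, 65.9% against 66.5% to 73.0% on the other arrays. Hbb (NM_033234), a marker of blood, was at 10.21, 13.96 and 11.64 in C1, C2 and C3, and at 17.42, 13.34, 15.37, 13.31 and 14.43 in M2, M3, H1, XH1 and XH3. The blood marker thus had a higher mean in blast rats, with M2, H1 and XH3 higher than any sham control rat and a log2 fold change of 2.84 (standard error 1.17, two-sided exact permutation p = 0.0893). Over the 8 rats, r with Hbb was 0.71 for Fosl1, the gene with a higher mean in blast rats, -0.66 for Egr1 and -0.62 for Jun, and between -0.26 (Atf3) and 0.11 (Junb) for the other 7 genes. Without C1 (n = 7) it was 0.43 for Fosl1, -0.65 for Egr1 and -0.36 for Jun, and between -0.03 (Myc) and 0.60 (Junb) for the others, so that for Atf3, Nr4a1 and Ier3 the sign turned, to 0.39, 0.53 and 0.08. The part of array signal and blood in the levels of these genes was not tested.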

How the data were processed

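Spot intensity came from Agilent Feature Extraction as run by the authors (version 10.7.1.1 per the file headers), with background subtracted, and they also deposited quantile normalized log2 values of the same 8 arrays, used as an alternative. From the intensities, control spots and spots with outlier flags were left out, the log2 values of the spots of each probe were averaged, quantile normalization was applied to the linear values, and a lower limit of 3 was set before the final log2. Blast was compared with sham control in limma 3.58.1 (R 4.3.3), with Benjamini-Hochberg adjustment over the 30366 probes having at least 2 values per group. The trend used the 30236 probes with values in all 5 blast rats. Single genes had a two-sided exact permutation test, unadjusted. The steps were tested on simulated data. The members and lists were chosen with earlier results of these data known. The named genes were all 10 members, Hbb, and the 2 probes most like Fos. In the gene table (Rattus rattus, Rrattus_CSIRO_v1), 0 of the 10 accessions matched, so the symbols are those listed with the accessions, and other genes and marker lists were not analysed here. The number of arrays limits the precision. The alternatives were 75th percentile scaling, normexp on the median signal (offset 50), no lower limit, a filter on dim probes (well above background on 3 or more arrays), outlier spots kept, the methods' one-way analysis of variance, array quality weights, slide row or title number as a block, the deposited values, and each rat left out. For the trend, all 8 rats and 200 kPa against 145 kPa were also used. The order by row was examined after the data were seen.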

Additional observations from a re-analysis of the deposited data

Results flagged for a closer look

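Among the 5 blast rats, Ier3 in H1 stood apart from the rest, at a log2 intensity of 12.54 against 11.68, 11.80, 11.86 and 11.80 in M2, M3, XH1 and XH3. The gap to the nearest rat made up 0.796 of the range of the group. This was the only one of the 10 genes for which a blast rat stood apart in this way, and chance alone marks about 1 in 20 such groups. Ier3 was read from 10 spots, all well above background on this array. The cause was not tested.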

How the results depend on the processing

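With 3 and 5 arrays, a p above the threshold does not show equal levels, and Dusp1 was near background. In each of 18 alternatives for blast against sham control, 0 of the 10 genes had an adjusted p under 0.05. Of all probes, at most 3 did. Blast and sham ranges were fully separate in 0 genes under the 14 alternatives counted (all probes were not counted). No lower limit and the filter on dim probes left the log2 fold changes as they were. The number at an unadjusted p under 0.05 was 0 in limma and the methods' analysis of variance. It was from 0 to 1 with each rat left out (1, Fosl1, without C2, at 2.9% of all probes). In the other alternatives 2.05% to 7.4% passed. The median log2 fold change lay between -0.30 (slide row as a block) and -0.12 (array quality weights), and with each rat left out between -0.45 (without C2) and -0.13 (without C1). The sign changed for Junb with array quality weights (0.14) and for Nr4a1 with each rat left out (from -0.46 to 0.25, without C1). The trend with pressure, with 1 gene at an unadjusted p under 0.05, had 0 with 75th percentile scaling, with the filter on dim probes, with the row as a block and with all 8 rats, where the slope of Jun was -0.0182, and from 0 to 2 with each blast rat left out (2 without M2, where 15.7% of all probes passed). In the fits with 0 genes, between 1.35% and 5.83% of all probes passed. Jun alone passed again with normexp (1.6% of all probes), with the deposited values (2.78%) and without H1 (4.22%). Without H1 the fit is 200 against 145 kPa, and no lower limit gave the main fit. Among the blast rats alone the slope of Jun lay between 0.12 (without M3) and 0.19 (without M2) in each fit that gives a slope. The number of genes with row 2 below row 1 was 4, against 3.79% of all probes. It was 2 with 75th percentile scaling or normexp, 3 with the deposited values, and from 4 to 5 with each rat left out. The share of all probes was not counted for these alternatives. With a rat left out, fewer arrays have to be ordered, so full separation is easier by chance. These alternatives for the rows were chosen after seeing the data. The causes were not tested. The title number as a replicate block gave 0 genes at an unadjusted and at an adjusted p under 0.05. Of all probes 2.8% and 0 passed in that fit. The median log2 fold change over the 10 genes was -0.26. For a sham control and a blast rat with the same number, deviations from the group means were correlated across genes. The values lay from -0.56 to 0.49, above 0 in 3 of 5 pairs. Within the blast group, M3 with XH3 and H1 with XH1 had -0.311 and -0.664. Deviations from a group's own mean sum to 0, which pulls values within a group below 0, so these cannot decide on pairing. The pairs between the groups were few and of both signs, and the number was not taken to pair rats. The probe with the lowest p was not run in place of the brightest, since each gene had 1 probe.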
